A study of Mus musculus with 38 samples.

Results

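The genes described here are 10 factors of heterochromatin and DNA methylation that act beside, or could stand in for, Trim28. They were taken by symbol from the deposited gene count table, in which all 10 of 10 were found among 55298 genes. They are the H3K9 methyltransferases Suv39h1, Suv39h2, Ehmt1 (GLP) and Ehmt2 (G9a), the HUSH complex subunit Mphosph8 (MPP8), the DNA methyltransferases Dnmt1 and Dnmt3a, the Dnmt1 partner Uhrf1, and the histone H3.3 chaperone pair Atrx and Daxx.

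Trim28 (KAP1) is a corepressor that KRAB zinc finger proteins bring to transposable elements, where the enzyme Setdb1 places H3K9me3. Suv39h1 and Suv39h2 place H3K9me3 mainly at pericentric repeats, and Ehmt1 and Ehmt2 form a complex that places H3K9me2. Mphosph8 binds methylated H3K9 through its chromodomain as part of HUSH. Dnmt3a sets DNA methylation de novo and is known for non-CG methylation in neurons, while Dnmt1, with Uhrf1, copies methylation onto newly replicated DNA. Atrx and Daxx deposit H3.3 at heterochromatin and repeats.

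The series holds 38 samples, of which 32 are bulk RNA-seq libraries of 5 experiments and 4 are single-nuclei RNA-seq libraries; the 2 CUT&RUN libraries were not analysed here. Neural progenitor cell (NPC) cultures were made from the forebrain of Rosa26-Cas9 knock-in embryos at embryonic day 13.5, transduced with lentiviral guide RNAs g3, g4 or g13 against Trim28 (6 cultures) or against the bacterial gene lacZ (2 cultures), and sorted for an RFP reporter after 10 days. In adult Cas9-GFP mice AAV vectors carried the same guides, alone or all together, and the RFP reporter under the neuronal synapsin promoter into the forebrain (4 KO libraries and 1 lacZ control), and RFP+ nuclei were sorted after 2 months. Stop-Cas9-GFP mice received guide vectors whose RFP reporter depends on Cre (4 KO libraries and 1 lacZ control) and a second AAV with Cre under the synapsin promoter, without which they make no Cas9. Adult Trim28-flox mice (+/- and +/+) received AAV with synapsin-driven Cre and a nuclear GFP reporter, and nuclei were sorted after 2 months, giving 4 libraries labelled KO and 4 labelled control. The last bulk experiment used cortex from 3 Emx1-Cre (+/-); Trim28-fl (+/+) animals and 3 controls at 3 months. These controls were Emx1-Cre (+/-); Trim28-fl (+/-), by the labels, so that both groups would carry Cre and the controls would lack 1 Trim28 allele; a legend of the study calls the cortex controls Cre-negative instead, and the files do not settle which holds. Emx1-Cre acts in the lineage of cortical excitatory neurons and many glia, so inhibitory neurons and microglia of the same tissue keep Trim28. The nuclei came from the cortex of 4 of these animals, 2 of each genotype.

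Bulk libraries held 8790346 to 25345083 reads in genes. Unless RPKM is named, levels are in CPM, read counts divided by the effective library size and scaled within an experiment. Trim28 was the check of the labels. Its level was 36.8 to 73.6 CPM in the NPC KO cultures against 157 and 204 CPM in the controls (log2 fold change -1.82, adjusted p = 0.031), and 6.08 to 8.88 CPM in the KO cortex against 19.0 to 21.4 CPM in the control cortex (log2 fold change -1.39, adjusted p = 3.8e-04). In Cas9-GFP nuclei it was 93.8 to 105 CPM in the KO libraries and 143 CPM in the control, which did not pass the test (adjusted p = 0.41), and in Stop-Cas9-GFP nuclei the KO libraries, at 88.5 to 127 CPM, enclosed the control at 106 CPM. In the Trim28-flox nuclei Trim28 went against the labels, with 131 to 146 CPM in the libraries labelled KO and 25.6 to 31.6 CPM in those labelled control (log2 fold change 2.26, adjusted p = 2.7e-06). These groups are therefore called by their labels throughout, and any direction drawn from them depends on the labels. By marker genes, the summed level of 5 progenitor genes was 5238 and 6429 CPM in the NPC controls and 3.47 to 6.71 CPM in the sorted control nuclei, and that of 5 neuronal genes was 1453 to 2155 CPM in the nuclei, 12780 to 13480 CPM in cortex and also 1257 and 1449 CPM in the NPCs. These sums and the RPKM below come from 1 common scaling of the 11 control libraries.

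Promoter windows are shown for 5 members, which are not all the members with such levels. Uhrf1, Dnmt1 and Suv39h1 were higher in NPC controls than in control cortex and in the nuclei labelled flox control. Ehmt2 and Dnmt3a were lower in NPC controls than in those nuclei but higher than in control cortex. The window printed for a gene is the one with the most E2F matches or, with no match, its first, so the matches in it are part of the choice. Each window runs from 250 bases before to 50 bases after a RefSeq transcription start on build GRCm38.p6 and is written 5′ to 3′ on the strand of the gene. Capitals mark matches to 2 motifs of cell-cycle promoters, the E2F motif (TTTCGCGC, TTTGGCGC, TTTCCCGC or TTTGCCGC) and the CCAAT box, on either strand.
Uhrf1, chr17:56304063-56304362 (+): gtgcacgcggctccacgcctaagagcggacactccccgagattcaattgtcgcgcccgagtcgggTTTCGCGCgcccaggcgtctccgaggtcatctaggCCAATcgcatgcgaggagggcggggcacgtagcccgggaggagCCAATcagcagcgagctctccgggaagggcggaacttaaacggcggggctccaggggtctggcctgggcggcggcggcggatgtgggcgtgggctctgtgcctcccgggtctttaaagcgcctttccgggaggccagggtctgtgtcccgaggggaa
Dnmt1, chr9:20952574-20952873 (-): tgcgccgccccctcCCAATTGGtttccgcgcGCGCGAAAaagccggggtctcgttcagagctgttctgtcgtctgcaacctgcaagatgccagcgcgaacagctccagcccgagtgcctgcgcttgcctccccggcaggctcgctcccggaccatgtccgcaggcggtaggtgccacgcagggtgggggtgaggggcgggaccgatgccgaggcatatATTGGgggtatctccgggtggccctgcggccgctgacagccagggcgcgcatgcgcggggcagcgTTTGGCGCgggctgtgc
Suv39h1, chrX:8074312-8074611 (-): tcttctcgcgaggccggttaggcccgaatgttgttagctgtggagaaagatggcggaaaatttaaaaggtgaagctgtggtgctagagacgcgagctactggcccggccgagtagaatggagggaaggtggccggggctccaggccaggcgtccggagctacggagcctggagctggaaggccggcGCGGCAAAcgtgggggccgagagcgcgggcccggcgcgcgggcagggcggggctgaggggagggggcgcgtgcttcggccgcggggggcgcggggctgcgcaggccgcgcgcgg
Ehmt2, chr17:34898224-34898523 (+): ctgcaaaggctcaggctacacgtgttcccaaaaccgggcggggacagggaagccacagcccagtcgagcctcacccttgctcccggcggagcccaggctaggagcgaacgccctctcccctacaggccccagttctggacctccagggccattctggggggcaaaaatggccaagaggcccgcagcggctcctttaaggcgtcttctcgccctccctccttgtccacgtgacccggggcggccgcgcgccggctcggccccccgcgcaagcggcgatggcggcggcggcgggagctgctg
Dnmt3a, chr12:3806730-3807029 (+): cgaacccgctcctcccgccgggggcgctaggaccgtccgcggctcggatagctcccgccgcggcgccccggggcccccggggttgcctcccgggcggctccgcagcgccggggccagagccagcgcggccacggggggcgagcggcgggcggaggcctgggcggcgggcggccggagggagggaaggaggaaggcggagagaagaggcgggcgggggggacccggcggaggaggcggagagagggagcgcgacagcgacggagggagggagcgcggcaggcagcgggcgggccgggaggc
The 10 members have 19 such windows, and 3 of them, 1 each of Uhrf1, Dnmt1 and Suv39h1, held an E2F match, against 2.26% of all 32851 mouse windows. Suv39h2 and Daxx held no E2F match, although they too were higher in NPC controls than in cortex and in the nuclei labelled flox control. The genes printed therefore do not show a link between the motif and the level. The match in Uhrf1 began 185 bases upstream of the start, that in Suv39h1 64 bases upstream, and Dnmt1 had one 219 bases upstream and another 33 bases downstream. In Dnmt1 a CCAAT box and its reverse complement overlap by 2 letters. A CCAAT box stood in 8 of the 19 windows, against 37.4% of all windows, and a CHR motif (TTTGAA or TTCGAA) in 2 of 19, against 19.2%. The printed Ehmt2 and Dnmt3a windows held none of these letters. A match is a description of sequence and was not tied to binding of a factor.

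The first question was whether loss of Trim28 is accompanied by a change in these factors. None of the 10 members was called changed (log2 fold change beyond 0.5 in either direction, with an edgeR adjusted p under 0.05) in any of the 5 bulk experiments, and 0 members reached an unadjusted p under 0.05 in any of them. Of all genes tested, 0.194% were called in NPCs, 0% in Cas9-GFP nuclei, 0% in Stop-Cas9-GFP nuclei, 0.0409% in Trim28-flox nuclei and 1.33% in the Emx1-Cre cortex. At such shares, 0 of 10 is not a result about the members. DESeq2 called 0 members in each experiment too, and over all genes an unadjusted edgeR p under 0.05 was reached by 752, 1560, 459, 810 and 1488 genes in the same order of experiments. The median log2 fold change of the members was -0.05, 0.15, -0.09, -0.08 and 0.05, and that of all genes 0.01, 0.05, 0.03, 0.01 and 0.01. The differences are therefore given below with their 95% confidence intervals, in parentheses after each log2 fold change.

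**Figure D1:**
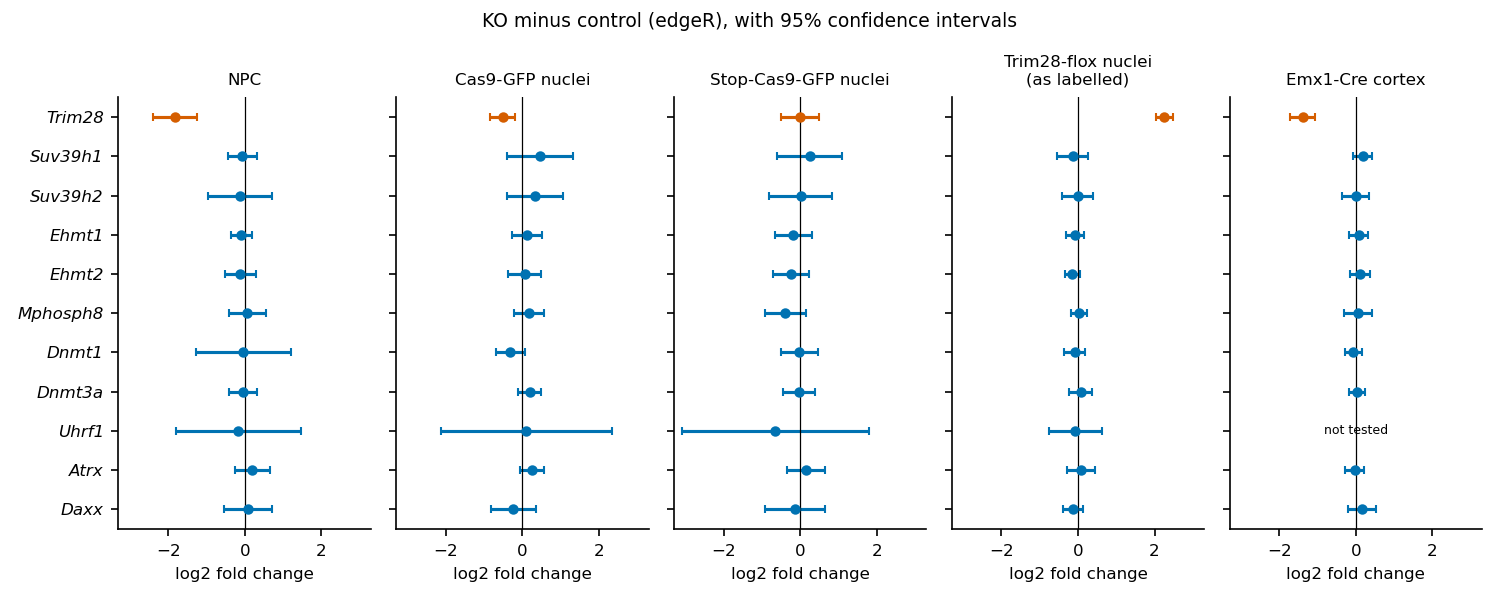
Log2 fold change, KO minus control, of Trim28 (orange) and the 10 members (blue) in each bulk experiment, with points for the edgeR estimate and bars for the 95% confidence interval. All intervals of the members cross 0, and the widest belong to Uhrf1 in the Cas9-GFP and Stop-Cas9-GFP nuclei; Trim28 is negative in NPCs, Cas9-GFP nuclei and cortex and positive in the Trim28-flox nuclei as labelled.

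In the cortex, among the H3K9 methyltransferases, Suv39h1 was 17.7, 17.4 and 17.7 CPM in the 3 KO animals and 14.3, 16.9 and 15.6 CPM in the 3 controls. The groups did not overlap, which was true of 1 of the 9 members tested and of 13.9% of all genes tested in cortex, and the log2 fold change was 0.18 (95% confidence interval -0.07 to 0.42, adjusted p = 0.79). Suv39h2 was 6.26 to 7.90 CPM in KO and 6.00 to 7.83 CPM in control cortex, with a log2 fold change of -0.0035 (-0.35 to 0.34). Ehmt1 (0.07, interval -0.18 to 0.32) and Ehmt2 (0.10, -0.16 to 0.36) overlapped between genotypes. Mphosph8 ranged from 61.3 to 107 CPM in the KO animals and from 67.5 to 86.3 CPM in the controls, so the KO animals spread around the controls (0.05, -0.32 to 0.42). Dnmt1 differed by -0.06 (-0.29 to 0.17) and Dnmt3a by 0.03 (-0.18 to 0.24). Atrx differed by -0.03 (-0.28 to 0.23) and Daxx by 0.16 (-0.21 to 0.53). For 8 of the 9 members tested in cortex, all but Daxx, the interval stayed below a log2 fold change of 0.5 in either direction. Uhrf1 was below the filter on low counts, with 15 reads over the 3 KO libraries and 14 over the 3 controls. Some marker sums did not overlap between genotypes. Those of neurons in general, excitatory and inhibitory neurons, astrocytes, oligodendrocyte progenitors and microglia did overlap, as did the sum of proliferation genes. Oligodendrocyte markers summed to 2097 to 2269 CPM over 5 genes in the KO cortex against 2610 to 2816 CPM, vascular and meningeal markers to 84.3 to 108 CPM over 6 genes against 119 to 125 CPM, and progenitor markers to 117 to 149 CPM over 5 genes against 91.3 to 98.4 CPM. The part of these in the members' values was not tested. In bulk samples, fewer cells of a type and less RNA per cell cannot be told apart.

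In the Trim28-flox nuclei the 2 groups of 4 libraries were compared by their labels. Ehmt2 was 459 to 488 CPM in the libraries labelled KO and 498 to 568 CPM in those labelled control. The groups did not overlap, which was true of 1 of 10 members and of 3.37% of all genes tested, and the log2 fold change was -0.14 (95% confidence interval -0.34 to 0.05, adjusted p = 0.97). With the labels exchanged, the sign of this and of every value here would turn. The other 9 members overlapped, with log2 fold changes between -0.14 (Suv39h1) and 0.08 (Atrx). Dnmt3a, the de novo enzyme, was 334 to 508 CPM in the libraries labelled KO and 377 to 488 CPM in those labelled control (0.07, -0.24 to 0.38). Uhrf1 was 1.09 to 1.78 CPM and 1.09 to 2.10 CPM; it rested on 19 to 38 reads per library. Suv39h2 in 1 library labelled KO stood apart at 11.5 CPM, with the other 3 of its group at 7.62 to 7.85 CPM.

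In both CRISPR experiments on adult nuclei a single control library stands against 4 KO libraries, so spread within a group came from the KO libraries alone. These KO libraries carry different guides (g3, g4, g13 or all together), with no library repeated for a guide. The spread, and the intervals and p-values from it, therefore mix differences between guides with those between libraries. In Cas9-GFP nuclei the control lay outside the KO range for 7 of 10 members, as it did for 45.2% of all genes tested (0% of genes were called). Dnmt1 was 94.9 to 122 CPM in the KO libraries and 130 CPM in the control (log2 fold change -0.32, -0.70 to 0.05, adjusted p = 0.65). The summed proliferation list described below for NPCs was 31.2 to 42.1 CPM in these KO libraries and 53.7 CPM in the control, and its part was not tested. Dnmt3a was 442 to 505 CPM in the KO libraries and 408 CPM in the control (0.19, -0.12 to 0.49). Atrx was 477 to 551 CPM against 439 CPM (0.25, -0.05 to 0.56). In the Stop-Cas9-GFP nuclei the control lay inside the KO range for 8 members and outside it for Ehmt1 and Mphosph8, as it was for 33.5% of all genes tested. Dnmt1 was 83.5 to 105 CPM in the KO libraries with the control at 94.6 CPM, and Dnmt3a was 402 to 461 CPM with the control at 445 CPM. Mphosph8 was 86.6 to 155 CPM in the KO libraries and 158 CPM in the control (-0.39, -0.93 to 0.16, adjusted p = 1.00), whereas in the Cas9-GFP nuclei the same gene was 111 to 144 CPM in the KO libraries and 109 CPM in the control. The difference between both lines was 0.57 for Mphosph8 (SE 0.33, adjusted p = 1.00), and 0 genes of 20512 differed. Uhrf1 rested on 68 and 14 reads in one line and 58 and 19 in the other, and intervals as wide as -3.10 to 1.80 on the log2 scale cover changes in either direction.

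In NPCs the spread between cultures was largest for Uhrf1 and Dnmt1. Uhrf1 had a lowest, median and highest level of 17.8, 102 and 182 CPM over the 6 KO cultures and was 55.8 and 172 CPM in the controls. Dnmt1 was 53.7, 194 and 269 CPM over the KO cultures and 100 and 266 CPM in the controls. Both controls lay inside the KO range, groups that did not overlap were found for 0 of 10 members and 6.85% of all genes tested, and the KO difference had an SE of 0.73 for Uhrf1 and 0.56 for Dnmt1 on the log2 scale. The remaining members varied less. Ehmt1 was 64.6 to 73.9 CPM in KO and 70.6 and 77.5 CPM in control cultures (-0.09, -0.36 to 0.18). Dnmt3a was 117 to 164 CPM and 133 and 155 CPM (-0.05, -0.42 to 0.32). Atrx was 360 to 598 CPM and 418 and 459 CPM (0.20, -0.26 to 0.66).

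**Figure D2:**
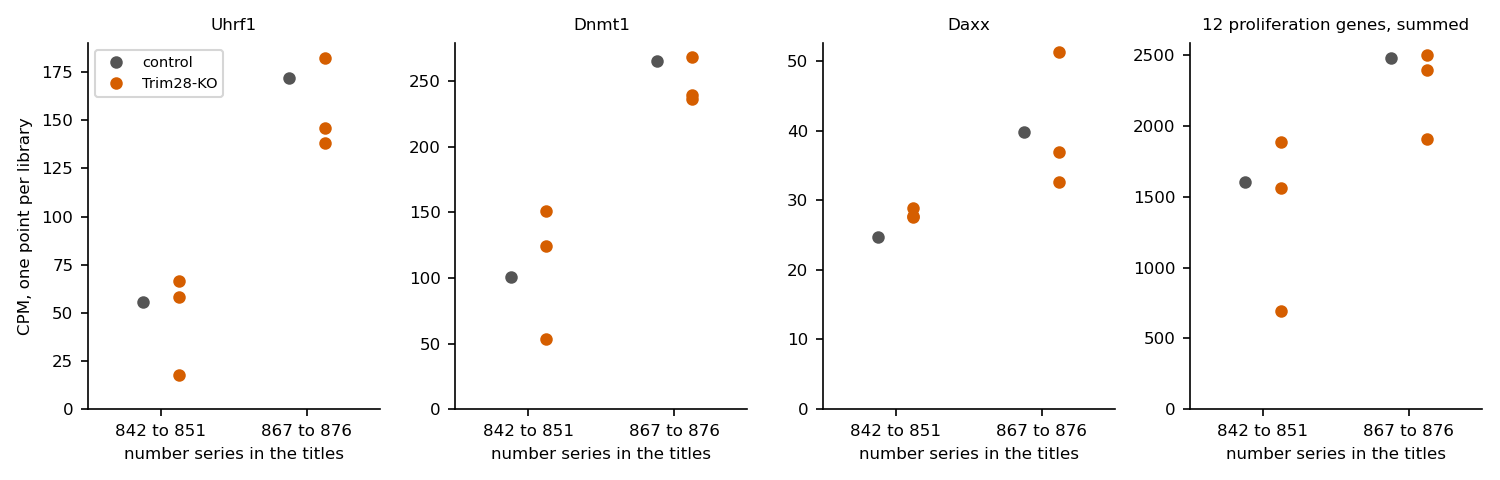
CPM of Uhrf1, Dnmt1, Daxx and the sum of 12 proliferation genes in the 8 NPC libraries, 1 point each, by the number series in their titles; control cultures are grey and Trim28-KO cultures orange. Uhrf1 and Dnmt1 are higher in every culture of the higher-numbered series than in any of the lower-numbered series, while KO and control lie together within a series.

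The spread followed the numbers in the culture titles, which form a lower-numbered series (the first) and a higher-numbered series (the second), and both hold 1 lacZ culture and 1 of every guide. What sets the series apart is not given in the labels. In a fit with genotype and series, Uhrf1 was higher in the second series by 1.69 on the log2 scale (SE 0.34, adjusted p = 0.0088), Dnmt1 by 1.24 (SE 0.27, adjusted p = 0.011) and Daxx by 0.56 (SE 0.15, adjusted p = 0.023), while 22.6% of all genes were called between series, 11.5% in this direction. Suv39h1 was higher by 0.32 (adjusted p = 0.033), below the fold threshold, and the difference of Dnmt3a was -0.27 (adjusted p = 0.067). Of the proliferation list (Mki67, Top2a, Pcna and 9 other genes of S phase and mitosis), 5 of 12 genes were called higher and 0 lower, with a median of 1.06. The summed level of this list was 691 to 1888 CPM in the first series and 1908 to 2501 CPM in the second. The lowest culture for Uhrf1 and Dnmt1, the g3 culture of the first series, was also the lowest for this sum, at 691 CPM. Astrocyte markers went the other way, with 1906 to 2802 CPM over 5 genes in the first series and 1440 to 1577 CPM in the second. So did markers of oligodendrocyte progenitors (3099 to 3845 CPM against 2111 to 2555 CPM) and microglia (43.6 to 64.3 CPM against 25.5 to 31.2 CPM). Oligodendrocyte markers did too (11.2 to 24.85 CPM against 7.59 to 10.8 CPM). Progenitor markers were higher in the second series, at 5576 to 6661 CPM against 3249 to 5156 CPM. The other marker sums overlapped between series. The part of these lists in the Uhrf1 and Dnmt1 levels was not tested.

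With the series as a replicate block, the NPC intervals narrowed. The KO difference of Uhrf1 was -0.19 (-1.03 to 0.65) instead of -0.17 (-1.80 to 1.47), and that of Dnmt1 was 0.01 (-0.67 to 0.69) instead of -0.03 (-1.28 to 1.22). The count of all genes called rose from 29 higher and 3 lower to 93 higher and 43 lower, with 0 members called in either fit. Within the first series Uhrf1 averaged 47.6 CPM in 3 KO cultures against 55.8 CPM in the control, and within the second 156 CPM against 172 CPM.

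The KO effect was also compared between experiments, in 1 fit over all 32 libraries. None of the 10 members differed between NPCs and cortex (0.109% of genes called), between NPCs and Trim28-flox nuclei (0.215%) or between cortex and Trim28-flox nuclei (0.117%), and 0 had an unadjusted p under 0.05. With the labels of the flox libraries exchanged, 0 members were called in either contrast as well. Trim28 itself differed by -4.12 and -3.69 against the flox nuclei as labelled.

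A second question was which of the factors each system holds at baseline. In the control libraries most members differed between systems, as did most genes, so the counts below are read against the share of all genes called. RPKM, which divides by exon length, allows genes to be compared with one another. The NPC libraries are whole-cell RNA of cultured cells, the sorted libraries nuclear RNA and the cortex whole tissue. For adult Cas9 knock-in mice the study's methods describe injection into the striatum, a region other than cortex. The region of the flox nuclei is given only as forebrain. Cell type, brain region, RNA fraction and experiment therefore cannot be told apart.

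**Figure D3:**
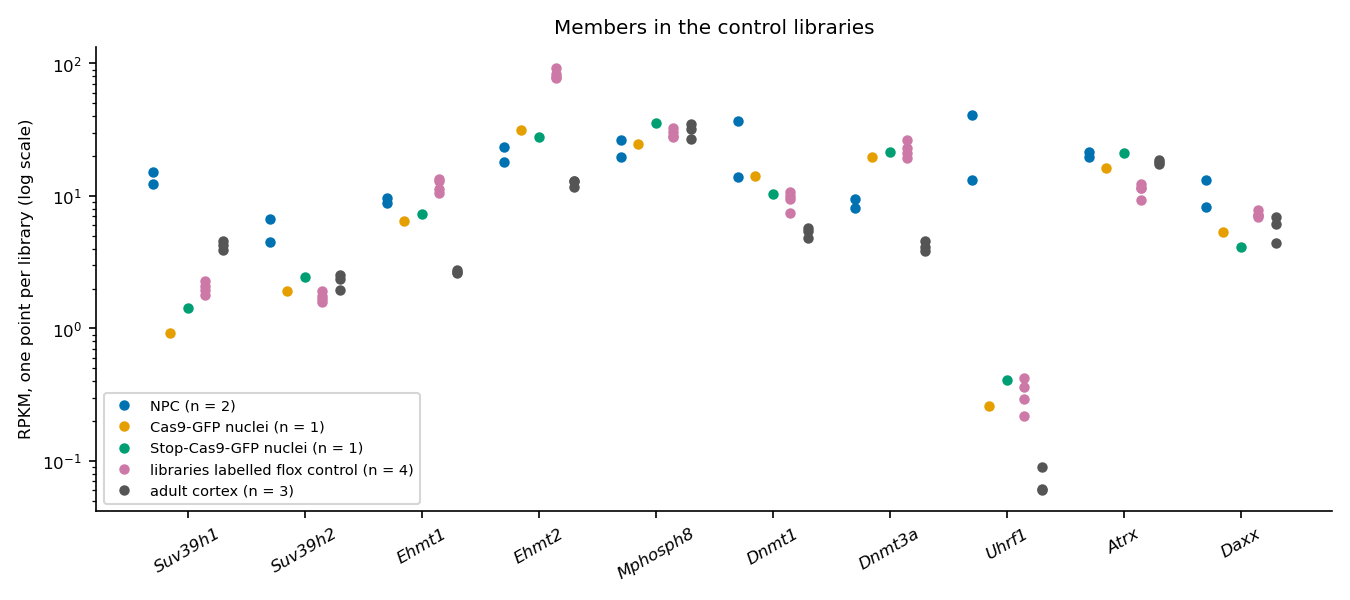
RPKM of the 10 members in the 11 control libraries (log axis), 1 point per library, by system. Uhrf1 spans from under 0.1 RPKM in cortex to 41.1 RPKM in NPCs, Ehmt2 is highest in the nuclei labelled flox control, and Mphosph8 lies between 19.7 and 35.7 RPKM everywhere.

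Against cortex, 8 of 10 members were higher in NPCs and 0 lower, where 61.8% of genes were called and 28.8% were higher. Uhrf1 was 13.3 and 41.1 RPKM in the NPC controls and 0.0616, 0.0908 and 0.0600 RPKM in cortex (log2 fold change 8.59, SE 0.52, adjusted p = 2.0e-08), the latter from 14 reads. Dnmt1 was 13.8 and 36.7 RPKM against 4.84 to 5.73 RPKM (2.25, SE 0.30, adjusted p = 2.9e-05). Both genes act at DNA replication, and the summed proliferation list was 1628 and 2527 CPM in NPCs and 74.0 to 76.6 CPM in cortex, its 12 of 12 genes higher in NPCs. In the nuclei labelled flox control this sum was 25.3 to 30.4 CPM, below cortex, while Uhrf1 and Dnmt1 were higher there than in cortex. The part of proliferation in the Uhrf1 and Dnmt1 levels was not tested. The H3K9 methyltransferases were higher in NPCs as well, with Ehmt1 by 1.78, Suv39h1 by 1.70, Suv39h2 by 1.29 and Ehmt2 by 0.73. Dnmt3a was higher by 1.07 (9.49 and 8.16 RPKM against 3.82 to 4.60 RPKM) and Daxx by 0.89. Mphosph8 differed by -0.44 (adjusted p = 0.032), short of the fold threshold, and Atrx by 0.18 (adjusted p = 0.30). Without the NPC control of the second series, Daxx was no longer called (0.51, adjusted p = 0.078) and Mphosph8 was called lower (-0.66, adjusted p = 0.0073).

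Against the nuclei labelled flox control, 6 members were higher in NPCs and 2 lower, where 74.6% of genes were called, 34.6% higher and 40.1% lower. Uhrf1 was higher by 6.38, Suv39h1 by 2.76, Suv39h2 by 1.69, Dnmt1 by 1.43, Atrx by 0.88 and Daxx by 0.56. The sizes for Dnmt1 and Uhrf1 rested on which NPC control was used: without that of the first series they were 2.10 and 7.11 against nuclei and 3.01 and 9.41 against cortex, and without that of the second series 0.57 and 5.35 against nuclei and 1.38 and 7.56 against cortex. Ehmt2 was lower in NPCs, at 18.2 and 23.6 RPKM against 78.3 to 92.3 RPKM (-1.99, SE 0.16, adjusted p = 1.1e-07). Dnmt3a was also lower in NPCs, at 9.49 and 8.16 RPKM against 19.4 to 26.3 RPKM (-1.35, SE 0.16, adjusted p = 6.0e-06). The Cas9-GFP and Stop-Cas9-GFP controls, with 1 library each, held 19.9 and 21.6 RPKM of Dnmt3a and 31.4 and 27.99 RPKM of Ehmt2. Their Dnmt1 was 14.3 and 10.4 RPKM, against 13.8 and 36.7 RPKM in the NPC controls, so the Cas9-GFP control lay above the lower NPC control. NPCs were not tested against the nuclei of these lines. The call of Daxx was lost without the NPC control of the second series (0.18, adjusted p = 0.48) and without the flox control with the lowest title number (0.55, adjusted p = 0.051). Mphosph8 was called lower without that NPC control (-0.59, adjusted p = 0.0096). The median of all genes in this contrast was -0.31, so differences of that size are near the middle of all genes. Ehmt1 (-0.38, adjusted p = 0.024) and Mphosph8 (-0.37, adjusted p = 0.046) were of that size.

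Between cortex and the nuclei labelled flox control, 2 members were higher in cortex and 5 lower, where 73.7% of genes were called, 39.7% higher and 34% lower. Suv39h1 was higher by 1.06 and Atrx by 0.70. Ehmt2 (11.7 to 13.0 RPKM in cortex) was lower by 2.73 on the log2 scale and its partner Ehmt1 (2.64 to 2.75 RPKM against 10.5 to 13.5 RPKM) by 2.16. Dnmt3a was lower by 2.42, Uhrf1 by 2.21 and Dnmt1 by 0.82. Mphosph8 was 27.1 to 34.8 RPKM in cortex and 28.02 to 32.7 RPKM in the nuclei, and it was the only member called in none of the 3 contrasts. Using the 4 libraries labelled KO as the flox group, a setting added after seeing the data, also gave 6 higher and 2 lower in NPCs and 2 higher and 5 lower in cortex. The scaling changed these directions: with library size and no scaling factor the median of all genes moved from -0.07 to 0.27 in NPCs against cortex, from -0.31 to -0.50 in NPCs against nuclei and from 0.11 to -0.47 in cortex against nuclei, and the members called were then 9 higher and 0 lower, 5 higher and 4 lower, and 0 higher and 7 lower. Fitting only both groups compared gave 1 higher and 6 lower for cortex against nuclei.

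Other genes of the same pathways, a list of 36 symbols of which 35 were in the table, were used to set the members in context. None passed the KO test in any of the 5 experiments. At baseline, 25 of 34 tested were higher in NPCs than in cortex and 2 lower, led by the replication-coupled chaperone subunit Chaf1b (6.55) and the remodeller Hells (4.19), a cofactor of DNA methylation. Zbtb38 (-2.46), which encodes a methyl-DNA binding protein, was among the lower. Against the nuclei labelled flox control, 15 were higher in NPCs and 8 lower, with Cbx3 (4.87) and Cbx5 (4.75), which encode HP1 proteins, among the higher and Kdm4b (-3.42), an H3K9 demethylase, the largest in the lower direction. In cortex against those nuclei, 11 were higher and 18 lower, and Setdb1, the enzyme recruited by Trim28, was among the lower (-2.97). These counts are read against the shares of all genes tested. The shares were 28.8% higher and 33% lower in NPCs against cortex, and 34.6% and 40.1% in NPCs against those nuclei. In cortex against those nuclei they were 39.7% and 34%.

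In the nuclei the members were followed by class of cell. The files held 14296 barcodes, of which 13671 were kept, with medians of 8088 to 8839.5 UMIs per animal, and pairs of libraries shared 0 to 20 barcodes. Clusters were named from marker genes as excitatory-like, inhibitory-like, astrocyte-like, oligodendrocyte-like, oligodendrocyte progenitor-like and vascular or meningeal-like nuclei. A cluster led by Hmha1, Siglech and Ikzf1 was left unnamed, because its nuclei held a median of 1813 UMIs, as low as 0.181 of the median of their own animal, and had no listed marker among its top 10 genes, although its best marker score was for the microglia list (1, with 0.124 for the next list), and 1 further cluster, led by Slc38a11, Vtn and Tbx3os1, had under 20 nuclei in some animals. Doublets were not removed, and levels between classes are descriptions, as the classes were built from the same genes. Dnmt3a (33089 UMIs), Atrx (31821) and Ehmt1 (17272) were the most detected members and Uhrf1 the least, with 42 UMIs in all.

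**Figure D4:**
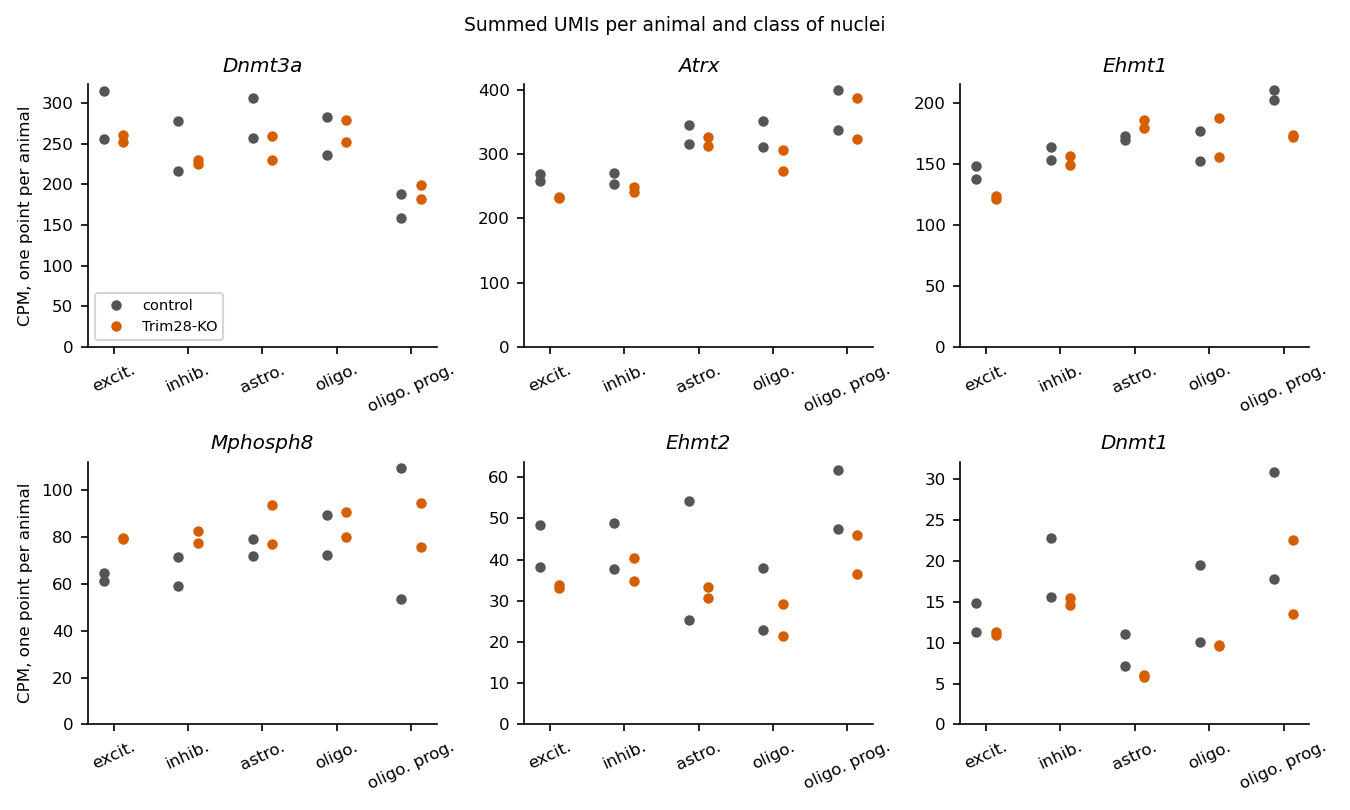
CPM of 6 members in 5 classes of nuclei (excitatory-like, inhibitory-like, astrocyte-like, oligodendrocyte-like and oligodendrocyte progenitor-like), 1 point per animal, with 2 controls (grey) and 2 Trim28-KO animals (orange) in each. In the excitatory-like class Mphosph8 is higher and Ehmt2, Ehmt1, Atrx and Dnmt1 are lower in both KO animals than in both controls. For Dnmt1 the nearest points almost coincide, at 11.28 CPM in a KO animal and 11.29 CPM in a control. In this class 60% of all genes tested separated the genotypes. The adjusted test was passed by none of the members in any class.

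Dnmt3a was 256 and 315 CPM in the excitatory-like nuclei of the controls, 216 and 278 CPM in the inhibitory-like, 257 and 306 CPM in the astrocyte-like and 158 and 188 CPM in the oligodendrocyte progenitor-like nuclei. Its highest control levels were in the unnamed cluster led by Hmha1, at 495 and 576 CPM. The vascular or meningeal-like controls followed at 422 and 430 CPM, from 68 UMIs. Atrx was 258 and 269 CPM in the excitatory-like controls and 400 and 337 CPM in the progenitor-like. It was highest in the vascular or meningeal-like controls, at 630 and 642 CPM from 101 UMIs. Dnmt1 was low throughout, at 11.3 and 14.9 CPM in the excitatory-like and 17.8 and 30.9 CPM in the progenitor-like controls. These values carry no exon-length correction, since they count 3′ tags, and they compare a gene across classes only.

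Between genotypes, 0 members were called in any class. The share of genes called at an adjusted p under 0.05 was 6.84% in the excitatory-like, 0% in the inhibitory-like, 2.09% in the astrocyte-like, 2.98% in the oligodendrocyte-like, 0.299% in the oligodendrocyte progenitor-like, 0% in the vascular or meningeal-like nuclei and 0% in the unnamed cluster. In the excitatory-like nuclei Mphosph8 was 79.8 and 79.2 CPM in the KO animals and 61.1 and 64.7 CPM in the controls (log2 fold change 0.34, 0.11 to 0.57, edgeR adjusted p = 0.079). Ehmt2 was 33.8 and 33.2 CPM against 38.2 and 48.4 CPM (-0.37, -0.69 to -0.05, edgeR adjusted p = 0.14). These were the 2 members at an unadjusted p under 0.05 in this class, out of 9 tested, where 28% of all genes tested reached one, and neither passed the adjusted test. The genotypes did not overlap for 6 of the 9 members (Ehmt1, Ehmt2, Mphosph8, Dnmt1, Atrx and Daxx), against 60% of all genes tested. Neither share is a result about the members. Dnmt1 barely separated, at 11.28 CPM in the higher KO animal and 11.29 CPM in the lower control. Ehmt1 differed by -0.22 (adjusted p = 0.19), Atrx by -0.17 (adjusted p = 0.26) and Dnmt3a by -0.15 (adjusted p = 0.44). In the inhibitory-like nuclei, which arise outside the Emx1 lineage, Mphosph8 was 82.4 and 77.5 CPM in the KO animals and 59.0 and 71.6 CPM in the controls (0.29, -0.02 to 0.60, adjusted p = 0.37). In cortex libraries, which include these 4 animals and are not independent of the nuclei, Mphosph8 differed by 0.05. Without control animal 64, Dnmt1 (-0.60, adjusted p = 0.042) and Dnmt3a (-0.29, adjusted p = 0.020) were called in the inhibitory-like nuclei, where that fit called 21.8% of all genes tested, and without control animal 65, Mphosph8 was (0.45, adjusted p = 0.029), where 3.46% of all genes were called. Trim28, with 1037 UMIs, was 6.20 and 6.65 CPM in KO and 8.58 and 7.23 CPM in control excitatory-like nuclei (adjusted p = 0.30).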

How the data were processed

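Bulk RNA-seq libraries were poly-A selected and stranded. The authors mapped reads with STAR 2.6.0 to GRCm38.p6 and counted them per gene with featureCounts (Subread 1.6.3); the deposited values are raw read counts, with both mates of a pair counted, and TEtranscripts gene counts were used as an alternative. Columns named flexcas were taken as the Stop-Cas9-GFP samples from the guide names, since no label uses that word. For 7 columns of the table the unit was recorded as other; they hold counts. Nuclei counts are deposited UMI counts from Cell Ranger 3.0 on pre-mRNA.

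Counts were tested in R 4.3.3 with edgeR 4.0.16 (quasi-likelihood, filterByExpr, TMM, Benjamini-Hochberg adjustment over all genes tested) and alternatively DESeq2 1.42.0. The call rule was an adjusted p under 0.05 with an absolute log2 fold change over 0.5, or the adjusted p alone in nuclei. The SE is the fold change over the square root of F. Symbols matched 54409 of 55298 genes. The 32 bulk libraries held 8790346 to 25345083 reads, and precision covers the spread between libraries, which in the CRISPR experiments includes differences between guides. The study's methods call the NPC cultures biological replicates, while the labels do not tie the AAV libraries to animals, so that spread may be partly technical. On simulated data a log2 fold change of 1.5 was recovered for 38.2% of genes in NPCs, 54.1% in Cas9-GFP nuclei, 81.1% in Trim28-flox nuclei, 94.5% in cortex and 85.8% in excitatory-like nuclei. Smaller changes were not simulated, so these shares do not apply to differences as small as the members' KO values. The Stop-Cas9-GFP nuclei were not simulated.

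NPC title numbers pair the cultures: deviations from guide means correlated with r from 0.53 to 0.71 in 6 of 6 pairs. Nuclei within 3 median absolute deviations of detected genes were clustered in Seurat 5.3.0 (2000 variable genes, 20 components, resolution 0.1), and UMIs were summed per animal and class. Every member was named, with the most changed pathway genes, of which 1 is not reported here. The members and lists were chosen with earlier results of these data known. CUT&RUN files were not used here.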

Additional observations from a re-analysis of the deposited data

Results flagged for a closer look

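Among 50 sets of a gene and a group of 4 to 10 libraries, 2 held a library far from the others. Chance gives about 1 in 20, and 2 of 50 is no more than that. Suv39h2 in the Trim28-flox library labelled KO that is the third by title number was 11.49 CPM, while the other 3 libraries of its group lay between 7.615 and 7.846 CPM. Daxx in the library labelled control that is the second by title number was 28.18 CPM, while the other 3 lay between 24.38 and 24.83 CPM. Both are in the experiment in which Trim28 went against the labels. The causes were not tested.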

How the results depend on the processing

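The count of members called between KO and control stayed at 0 under every alternative in all 5 bulk experiments, and so did the counts for the difference in KO effect. In nuclei it was 0 to 2 when 1 animal was left out, a fit in which the lone animal is assumed to vary like the others, and 0 otherwise. Members called in the control libraries were 8, 7 to 8 and 7 with 1 library left out. The replicate block in NPCs gave 0 members called and turned Dnmt1 to 0.012. Of bulk KO values, 51 of 520 had the opposite sign under an alternative, with 0 called. Over all genes, calls in NPCs were 150 with DESeq2 and 136 with the block against 32; in Cas9-GFP nuclei 25 with DESeq2, 131 with no filter and 4 with TEtranscripts counts against 0; in Stop-Cas9-GFP nuclei 1, 18 and 1 against 0, with 1 for both lines in 1 fit; in flox nuclei 38, 19 and 11 against 7; in cortex 546 with no filter against 216; and in nuclei 1044 with no filter against 1587. For the difference in KO effect against flox nuclei, no filter gave 85 against 53 in NPCs, and exchanged labels gave 35 in NPCs and 1 against 29 in cortex.

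Signs turned for these members, with the cause not tested. TEtranscripts counts gave Suv39h2 -0.55 and Uhrf1 -0.070 in Cas9-GFP nuclei, Suv39h2 -0.35 in Stop-Cas9-GFP nuclei and Suv39h2 0.13 in cortex. The joint fit of both Cas9 lines gave Ehmt1 -0.042, Ehmt2 -0.10, Mphosph8 -0.13 and Uhrf1 -0.31 for Cas9-GFP and Dnmt3a 0.066 for Stop-Cas9-GFP nuclei. In control cortex minus flox nuclei, Mphosph8 was -0.0645 with DESeq2 and -0.0645 with RLE, -0.52 with no factor (edgeR adjusted p = 0.0041), -0.0023 with no filter, -0.20 with both groups alone and -0.028 with the libraries labelled KO, and Suv39h2 was -0.20 with no factor. In nuclei, Dnmt3a in the unnamed cluster was 0.0073 with DESeq2 and 0.0066 with RLE, Suv39h2 in excitatory-like nuclei 0.0046 with no filter, and with all barcodes Ehmt1 was -0.034 and Ehmt2 0.022 in oligodendrocyte-like nuclei.

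The log2 fold changes whose sign turned when 1 library was left out are given as the lowest to the highest. In NPCs they were Suv39h1 -0.20 to 0.0945, Suv39h2 -0.40 to 0.19, Ehmt2 -0.29 to 0.0802, Mphosph8 -0.12 to 0.30, Dnmt1 -0.57 to 0.83, Dnmt3a -0.16 to 0.0636, Uhrf1 -0.76 to 0.86, Daxx -0.23 to 0.46. In Cas9-GFP nuclei they were Ehmt2 -0.0909 to 0.13, Uhrf1 -0.22 to 0.30. In Stop-Cas9-GFP nuclei they were Suv39h2 -0.0759 to 0.15, Dnmt1 -0.0962 to 0.0197. In Trim28-flox nuclei as labelled they were Suv39h2 -0.17 to 0.0557, Mphosph8 -0.0284 to 0.0617, Uhrf1 -0.20 to 0.0922, Atrx -0.0628 to 0.22. In cortex they were Suv39h2 -0.11 to 0.0765, Mphosph8 -0.20 to 0.22, Dnmt3a -0.0350 to 0.0960, Atrx -0.18 to 0.0678, Daxx -0.0126 to 0.30. In control cortex minus flox nuclei they were Mphosph8 -0.11 to 0.12. In astrocyte-like nuclei they were Ehmt2 -0.76 to 0.33, Atrx -0.11 to 0.0188. In the unnamed cluster they were Ehmt2 -0.30 to 0.24, Mphosph8 -0.14 to 0.49, Dnmt3a -0.21 to 0.21. In excitatory-like nuclei they were Suv39h2 -0.12 to 0.0979, Dnmt3a -0.30 to 0.00790. In inhibitory-like nuclei they were Suv39h1 -0.0507 to 0.83, Suv39h2 -0.34 to 0.18, Ehmt1 -0.0962 to 0.00700, Ehmt2 -0.37 to 0.00680, Dnmt3a -0.29 to 0.0808, Daxx -0.45 to 0.16. In oligodendrocyte-like nuclei they were Suv39h1 -1.51 to 0.18, Ehmt1 -0.0788 to 0.20, Ehmt2 -0.54 to 0.15, Mphosph8 -0.0604 to 0.22, Dnmt3a -0.0771 to 0.15. In oligodendrocyte progenitor-like nuclei they were Mphosph8 -0.36 to 0.66, Atrx -0.20 to 0.0697. In vascular or meningeal-like nuclei they were Ehmt1 -0.16 to 0.36, Dnmt3a -0.0671 to 0.29. In Stop-Cas9-GFP nuclei without the g13 library, Suv39h2 was 0.0154 and Dnmt1 -0.0351.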
